A study of Mus musculus with 160 samples.

Results

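In hematopoietic cells (HCs) of the *Gata3*-GFP- fraction, *S100a8* ranged from 3.25 to 14641 CPM between pools. Most pools with high *S100a8* also had more RNA of *S100a9*, of the granule genes *Camp* and *Lcn2* and of stefin A genes. CPM are counts per 1000000 gene counts of a pool. The pools were chosen by their *S100a8* level in CPM, and the 10 highest (S100a8-high) were compared with the 10 lowest (S100a8-low). They are 20 of the 160 pools of the series, which hold 20 cells each. The split rests on a measured value within 1 sorted population. S100a8-high and S100a8-low are therefore not treatment groups, the *S100a8* levels are given without a test, and each other gene was tested for whether it went with *S100a8* between pools.

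All HCs came from E10.5 embryos (E, embryonic day) with a GFP knock-in at *Gata3*, in which GFP reports *Gata3* expression, and were sorted by the surface markers CD41 and CD45 into *Gata3*-GFP- and *Gata3*-GFP+ cells. Each was profiled in 20 pools by Smart-seq2, which makes full-length cDNA from few cells. The cells came from 3 to 5 biological replicates, each of 2 to 6 pooled embryos, so the 20 pools of a population share these few replicates. No label ties a pool to its replicate. The tests treat the pools as independent, and p-values measure only the spread between pools, which can understate the spread between embryos. The remaining populations were *Gata3*-GFP+ and *Gata3*-GFP- endothelial cells (ECs) at E10.5, and the mesenchymal (MC) and sympathetic nervous system (SNS) cells at E11.5.

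*S100a8* and *S100a9* encode the subunits of calprotectin, a calcium- and zinc-binding protein that fills the cytosol of neutrophils and is also made by monocytes. Neutrophils mature through stages that load successive granules. Primary granules hold myeloperoxidase and the serine proteases, and secondary and tertiary granules, made later, hold lipocalin 2, cathelicidin and neutrophilic granule protein. The mouse stefin A genes encode small cytosolic inhibitors of cysteine proteases. In the midgestation embryo, HCs of the aorta-gonads-mesonephros region include progenitors and macrophages as well as cells of the granulocyte lineage.

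Gene counts per pool ran from 2010549 to 10313413 in S100a8-high and from 2706369 to 15700184 in S100a8-low. None of 5 library measures passed a permutation test between the 2 sets (two-sided, 100000 resamples, lowest adjusted p 0.877). These were the gene counts, the number of genes with at least 10 counts, the shares of ERCC spike-in and mitochondrial counts and the ratio of gene to ERCC counts. The ratio of gene to ERCC counts, which tracks RNA per pool, was 6.76 ± 0.38 on the log2 scale in S100a8-high and 6.84 ± 0.26 in S100a8-low (SD, n = 10 each). S100a8-high pool 9 stood apart, with 4.62% of its reads ambiguous between genes, against 13.7% to 17.5% in the other 19 pools. *Ptprc*, which encodes CD45, was found in every pool, from 273 to 627 CPM in S100a8-high and from 286 to 575 CPM in S100a8-low. *Itga2b*, which encodes CD41, was uneven, from 0.58 to 105.5 CPM and from 0.69 to 127.8 CPM. Neither passed the test between the 2 sets (log2 fold change -0.10 ± 0.13 for *Ptprc* and -0.11 ± 0.76 for *Itga2b*, SE, adjusted p = 0.999 for both in edgeR).

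*S100a8* (chr3:90668978-90670035, plus strand, GRCm38, GENCODE M21) and *S100a9* (chr3:90692632-90695721, minus strand) lie 22.6 kilobases apart. *S100a8* spanned more than 3 orders of magnitude in the *Gata3*-GFP- HC pools. Numbered from the highest, the S100a8-high pools 1 to 10 had 14641, 4275, 3639, 3344, 3232, 1339, 1307, 1255, 315 and 247 CPM. The S100a8-low pools 11 to 20 had 29.2, 24.2, 22.6, 12.1, 10.55, 6.90, 6.07, 6.03, 5.17 and 3.25 CPM. The step between the pools just inside and just outside the split, from 247 to 29.2 CPM, was wide, and pools 9 and 10 also lay apart from pools 1 to 8. Every pool had *S100a8* reads, with at least 14 counts in each S100a8-low pool.

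*S100a9* followed *S100a8* in most pools. In pools 1 to 10 it had 9540, 2882, 2238, 2459, 2524, 1086, 1235, 293, 34.03 and 22.1 CPM. In pools 11 to 20 it had 16.5, 3.70, 17.7, 6.07, 5.01, 3.97, 131.3, 5.06, 3.33 and 2.29 CPM. S100a8-high pools 1 to 8 exceeded every S100a8-low pool, and pools 9 and 10 lay below pool 17. The log2 fold change was 6.85 ± 1.13 (SE, adjusted p = 0.0094 in edgeR). *S100a9* was named with its values known, and its call held in only 4 of the 20 fits that left out 1 pool, those without pool 8, 9, 10 or 17, with a highest adjusted p of 0.0301.

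The ratio of *S100a9* to *S100a8* counts was not constant. It lay between 0.615 and 0.945 in pools 1 to 7, and at 0.234, 0.108 and 0.0893 in pools 8, 9 and 10. Pool 17 had a ratio of 21.6, with *S100a9* at 131.3 CPM beside *S100a8* at 6.07 CPM. Ranked by *S100a9*, 18 of the 20 pools stayed in the same set, and pools 10 and 17 changed places.

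**Figure D1:**
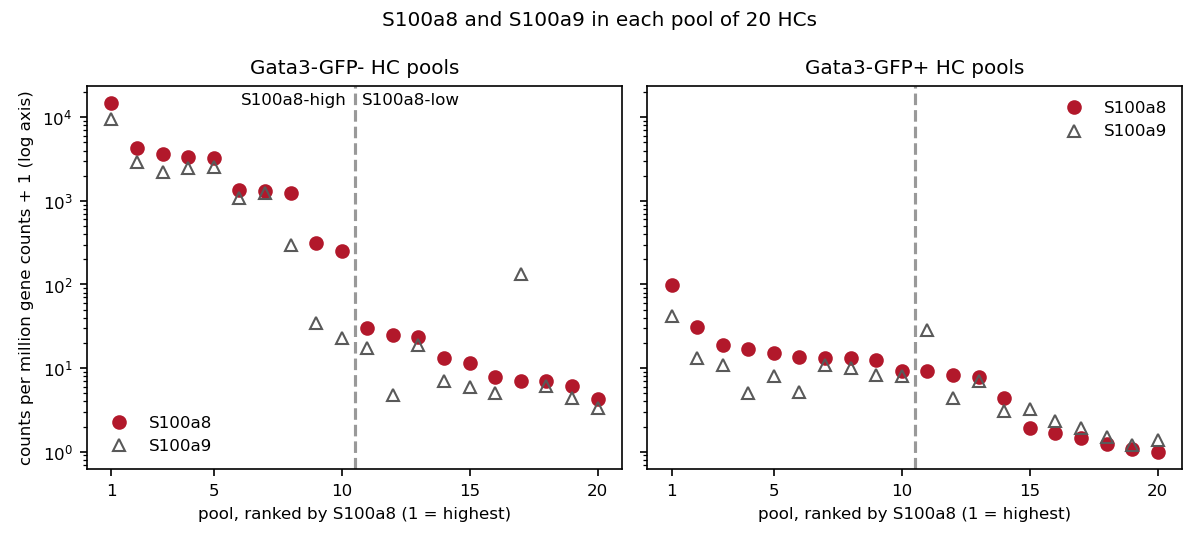
*S100a8* (filled circles) and *S100a9* (open triangles) in each pool of 20 cells, as CPM + 1 on a log axis, with pools ranked by *S100a8* and the dashed line at the split. In *Gata3*-GFP- HCs *S100a8* drops from 247 to 29.2 CPM at the line. In *Gata3*-GFP+ HCs it goes from 8.34 to 8.13 CPM there, with the highest pool at 98.6 CPM, the next at 29.7 CPM and the lowest at 0.

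Outside the *Gata3*-GFP- HCs *S100a8* stayed low. The *Gata3*-GFP+ HC pools had 0 to 98.6 CPM (median 8.24, n = 20), and the *Gata3*-GFP- EC pools 0 to 37.9 CPM (median 9.75, n = 20). The *Gata3*-GFP+ EC pools had 0.50 to 226 CPM (median 8.15, n = 20), and the highest of them was a pool with 48731 gene counts, of which 11 were *S100a8*. The S100a8-low pools, at 3.25 to 29.2 CPM, thus lay within the range of the ECs. At E11.5, *S100a8* had 0 counts in all *Gata3*-GFP+ MC, *Gata3*-GFP- MC and *Gata3*-GFP- SNS pools, and 1 count in 1 of the 20 *Gata3*-GFP+ SNS pools.

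Of 13863 genes tested besides *S100a8*, 11 were higher in S100a8-high and 0 were lower (0.0793% and 0% of the genes tested, edgeR's quasi-likelihood test, adjusted p under 0.01 and log2 fold change beyond 0.1), while 633 genes (4.57%) had an unadjusted p under 0.05. The 11 were *S100a9*, *Camp*, *Lcn2*, *Wfdc21*, *Fcnb* and the stefin genes *Stfa1*, *Csta1*, *Gm5483*, *Gm5416*, *BC117090* and *BC100530*. Of these, only *S100a9*, *Stfa1* and *BC100530* had at least 10 counts in 5 or more S100a8-low pools. The others passed the count filter only with the help of S100a8-high pools. DESeq2's Wald test called 23 genes higher, including all 11, and 2 lower, *Clec4n* and *Cxcl5*. In edgeR *Clec4n* and *Cxcl5* had log2 fold changes of -1.26 ± 0.30 and -5.32 ± 1.15 (SE, adjusted p = 0.161 and 0.0783). *Cxcl5* had 0 S100a8-high pools with 10 or more counts. Scanpy's test with overestimated variance, which is the study's test, called 0 of 13863. It had 662 genes at an unadjusted p under 0.05 and a smallest adjusted p of 0.0294. Together *S100a8* and the 11 genes took 0.0526% to 3.52% of the gene counts in S100a8-high (median 0.652%) and 0.00369% to 0.0237% in S100a8-low (median 0.0151%). The 11 genes summed to a median of 57 counts per pool in *Gata3*-GFP+ HCs (5 to 359), to medians of 45.5 (*Gata3*-GFP+) and 38 counts (*Gata3*-GFP-) in the ECs, and to at most 7 counts in any MC or SNS pool. In pools of 20 cells, fewer cells of a type and less RNA per cell cannot be told apart.

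**Figure D2:**
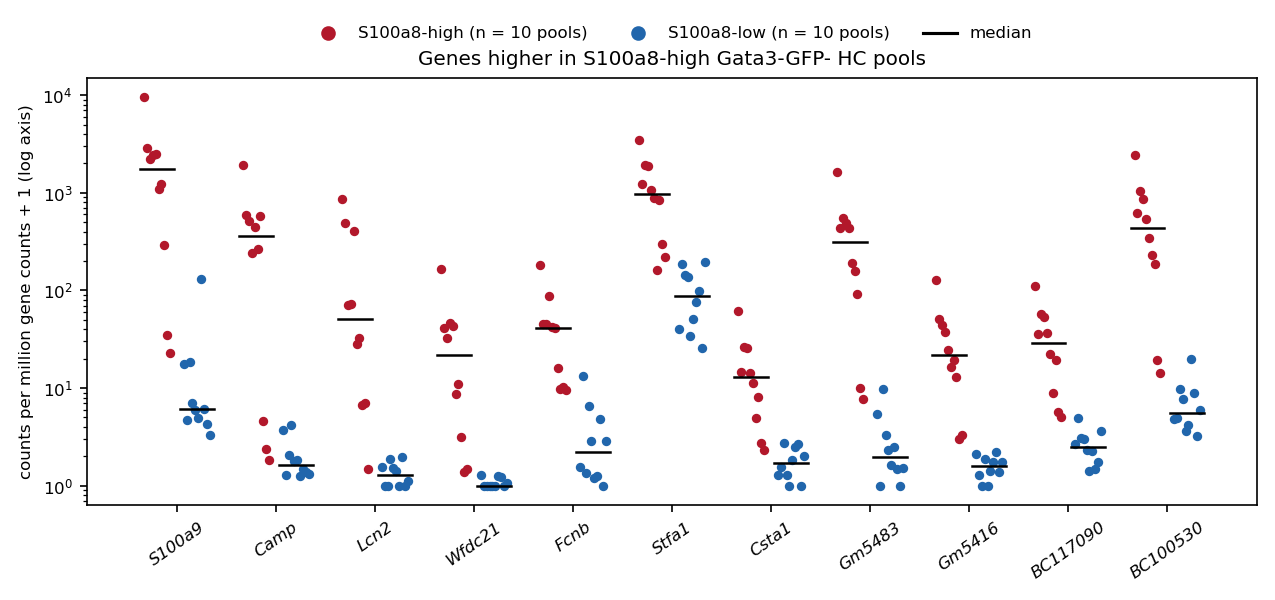
The 11 genes higher in S100a8-high *Gata3*-GFP- HC pools, as CPM + 1 on a log axis, with 1 point for each pool, S100a8-high in red and S100a8-low in blue, and the median of each set as a bar. The sets do not overlap for *Wfdc21*, *Gm5416* and *BC117090*, and for the other 8 genes the lowest S100a8-high pools reach the S100a8-low range.

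Cathelicidin and lipocalin 2, both stored in the later granules, showed the largest fitted fold changes of the 11 genes. S100a8-low pools held at most 11 counts of *Camp* and 4 of *Lcn2*, so the sizes depend on how the fit treats counts near 0. *Camp* (chr9:109847379-109849617, minus strand), which encodes the antimicrobial peptide precursor cathelicidin, had 1943, 598, 513, 244, 447, 267, 577, 3.56, 1.36 and 0.853 CPM in pools 1 to 10, and 0.253 to 3.18 CPM in S100a8-low (median 0.637). Pools 1 to 7 were far above every S100a8-low pool, and pools 9 and 10 lay within the S100a8-low range. The log2 fold change was 8.95 ± 1.28 (SE, adjusted p = 0.002). *Lcn2* (chr2:32384633-32388252, minus strand), whose product lipocalin 2 binds bacterial iron carriers, had 864, 491, 69.7, 71.9, 408, 26.98, 31.3, 5.69, 6.01 and 0.487 CPM in the same order. In S100a8-low it reached 0.964 CPM, or 4 counts, and 4 of 10 pools were at 0. Pools 1 to 9 exceeded every S100a8-low pool (log2 fold change 9.15 ± 1.36, SE, adjusted p = 0.0029).

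*Wfdc21* (chr11:83746940-83752642, plus strand), a gene for a small whey acidic protein domain protein, was almost absent from S100a8-low. It had 163, 40.5, 31.3, 45.8, 42.6, 7.61, 9.95, 2.13, 0.388 and 0.487 CPM in pools 1 to 10. The S100a8-low pools held 4 reads in all, 1 in each of 4 pools. Summed over each set, the rate was 333-fold higher in S100a8-high (exact 95% interval 129.6 to 1222, counting error only). The fitted log2 fold change of 8.29 ± 1.13 (SE, adjusted p = 0.000516) depends on how the fit treats counts near 0. All 10 S100a8-high pools lay above all S100a8-low pools, which was so for 4 of the genes tested (0.0289%), the others being *Gm5416*, *BC117090* and *Epop*. The lowest *Wfdc21* count in S100a8-high was 4, so for this gene the separation rests on few reads.

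*Fcnb* (chr2:28076378-28084885, minus strand), which encodes ficolin B, a sugar-binding recognition protein of myeloid cells, had 180, 43.9, 44.4, 86.7, 41.1, 39.8, 14.9, 8.89, 9.21 and 8.65 CPM in pools 1 to 10. In S100a8-low it ran from 0 to 12.2 CPM (median 1.198), so that pools 8, 9 and 10 overlapped with pool 12. The log2 fold change was 4.16 ± 0.72 (SE, adjusted p = 0.0098). Its call held in 4 of the 20 fits that left out 1 pool, those without pool 8, 9, 10 or 12, with a highest adjusted p of 0.0313.

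The stefin A genes, which lie within 335.4 kilobases of chromosome 16 (chr16:36119946-36455392, GRCm38, GENCODE M21), made up 6 of the 11. Of the 9 listed, all 9 were tested and 6 were higher, and the median log2 fold change of the list was 5.84, against 0.01 over all genes tested. This list and those below were written with earlier results of these data known, so their medians and counts are descriptions only. *Stfa1*, which encodes stefin A1, was present in all pools, with 3510, 1227, 1923, 1868, 1065, 879, 159.2, 848, 297 and 218 CPM in pools 1 to 10 and 24.8 to 195 CPM in S100a8-low (median 86.7). Pool 7 alone overlapped with S100a8-low (log2 fold change 3.59 ± 0.56, SE, adjusted p = 0.00412).

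*BC100530*, a stefin A family member, had 2448, 627, 1037, 865, 536, 343, 231, 186, 18.5 and 13.4 CPM in pools 1 to 10. In S100a8-low it had 2.22 to 18.7 CPM, and its highest pool was pool 17, which was also the highest S100a8-low pool in *S100a9*. The log2 fold change was 6.65 ± 0.83 (SE, adjusted p = 0.000495). *Gm5483* ran from 6.70 to 1652 CPM in S100a8-high (median 313) and from 0 to 8.67 CPM in S100a8-low (7.86 ± 0.998, SE, adjusted p = 0.000495). *Gm5416* (2.04 to 126.2 CPM against 0 to 1.21 CPM) and *BC117090* (4.02 to 110.8 CPM against 0.418 to 3.98 CPM) did not overlap between the 2 sets. Their log2 fold changes were 5.71 ± 0.70 and 4.32 ± 0.58 (SE, adjusted p = 0.000495 for both).

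*Csta1*, also of the stefin family, had 1.34 to 59.95 CPM in S100a8-high and 0 to 1.74 CPM in S100a8-low (4.27 ± 0.69, SE, adjusted p = 0.00412). The remaining *Stfa2*, *Stfa3* and *Stfa2l1* had log2 fold changes of 7.81 ± 1.513, 5.84 ± 1.060 and 6.58 ± 1.27 (SE) and did not pass in edgeR (adjusted p = 0.0381, 0.0209 and 0.0381). All 3 were called by DESeq2's Wald test, with *S100a8* as a slope, with 5 against 5 pools, and without pools 9 and 10. All 3 were highest in pool 1, at 520, 955 and 964 CPM, and had at most 7.92 CPM in pools 9 and 10. The stefin genes are close copies, and their reads can be hard to place. Of all windows of a read's length in their GENCODE transcripts, at most 5.32% were identical to a window of another listed gene (*BC117090*), 2.28% in *BC100530*, 0.563% in *Stfa1* and 0% in the other 6. Windows shared with genes outside the list were not counted. One such gene, *2010005H15Rik*, lies in the same stretch of chromosome 16 (log2 fold change 4.86 ± 1.02, SE, adjusted p = 0.063 in edgeR). The exons of *BC100530* overlap with *Gm15845*, which is read from the other strand, over 18.4% of their length, and libraries of this kind do not mark the strand.

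The 250 bases before the RefSeq start (GRCm38.p6) are shown for *S100a8*, *S100a9*, *Lcn2* and *Fcnb*, which are among the genes that moved together. RefSeq starts can differ from the GENCODE coordinates given above. The whole *Lcn2* window, and part of those of *S100a8* and *Fcnb*, lie within the GENCODE gene. Of the matched promoters not shown, those of *Camp* and *Csta1* hold 0 matches to the word marked here, and that of *Stfa1* holds 1. All are written 5′ to 3′ on the strand of the gene, and capitals mark the word TTGCNNAA in either orientation, a core recognized by C/EBP factors, which act in granulocyte genes.
*S100a8*, chr3:90668821-90669070, plus strand: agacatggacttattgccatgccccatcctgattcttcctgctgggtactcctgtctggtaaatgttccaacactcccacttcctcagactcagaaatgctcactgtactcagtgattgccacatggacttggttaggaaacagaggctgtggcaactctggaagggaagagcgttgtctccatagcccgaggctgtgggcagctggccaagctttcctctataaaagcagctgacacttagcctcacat
*S100a9*, chr3:90695722-90695971, minus strand: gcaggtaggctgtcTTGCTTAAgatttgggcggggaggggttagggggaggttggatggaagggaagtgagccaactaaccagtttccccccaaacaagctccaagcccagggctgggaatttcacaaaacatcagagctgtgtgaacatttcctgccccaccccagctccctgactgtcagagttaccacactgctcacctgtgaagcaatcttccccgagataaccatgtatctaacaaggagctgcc
*Lcn2*, chr2:32387740-32387989, minus strand: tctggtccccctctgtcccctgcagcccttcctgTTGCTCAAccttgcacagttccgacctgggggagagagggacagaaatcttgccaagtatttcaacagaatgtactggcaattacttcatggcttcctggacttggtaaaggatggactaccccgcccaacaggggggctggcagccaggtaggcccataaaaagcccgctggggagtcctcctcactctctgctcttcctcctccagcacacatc
*Fcnb*, chr2:28084879-28085128, minus strand: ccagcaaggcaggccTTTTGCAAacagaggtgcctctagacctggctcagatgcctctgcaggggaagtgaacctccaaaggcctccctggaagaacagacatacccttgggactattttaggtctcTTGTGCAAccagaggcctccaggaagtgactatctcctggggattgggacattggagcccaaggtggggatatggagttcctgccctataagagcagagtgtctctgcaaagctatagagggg

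Promoters of 7 of the 12 genes (*S100a8* and the 11) were matched in RefSeq. TTGCNNAA was found on either strand in 4 of these 7, *S100a9*, *Lcn2*, *Fcnb* and *Stfa1*, and in 9.56% of the 32851 promoters of the same length. It began 236 bases before the start in *S100a9*, 216 in *Lcn2* and 235 in *Fcnb*, which holds a second match. GAGGAA, a word recognized by PU.1 and related factors, was found on either strand in 4 of the 7 and in 23.3% of all promoters. These are matches of letters in this window only.

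The levels of the 11 genes within each set are given against *S100a8* as a description, with no test, because the genes were called on these same pools (plot of 6 genes against *S100a8*). Over the 10 S100a8-high pools Spearman's rho with *S100a8* lay between 0.84 for *Camp* and 0.98 for *Gm5416*, and Pearson's r on log2(CPM + 1) between 0.85 for *Stfa1* and 0.99 for *Gm5416*. Without pools 1 and 10, the farthest from the median, r was 0.73 to 0.98 and rho 0.69 to 0.98 over the 8 pools left. Over the 10 S100a8-low pools, where most of the genes had few reads, rho ran from -0.18 for *Gm5416* to 0.51 for *Gm5483*. Without pools 11 and 12 these values moved, to a rho of 0.86 for *Gm5483*, 0.81 for *Camp*, 0.64 for *S100a9* and -0.52 for *Wfdc21*. No rho or r is given over all 20 pools, because *S100a8* itself falls into separate clusters on the sides of the split. The 10 genes that ranked most like *S100a8* over the 20 pools (Spearman) were *Gm5483*, *BC117090*, *S100a9*, *Camp*, *Fcnb*, *Wfdc21*, *Gm5689*, *Stfa2l1*, *BC100530* and *Gm5416*, of which *Gm5689* and *Stfa2l1* are not among the 11.

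**Figure D3:**
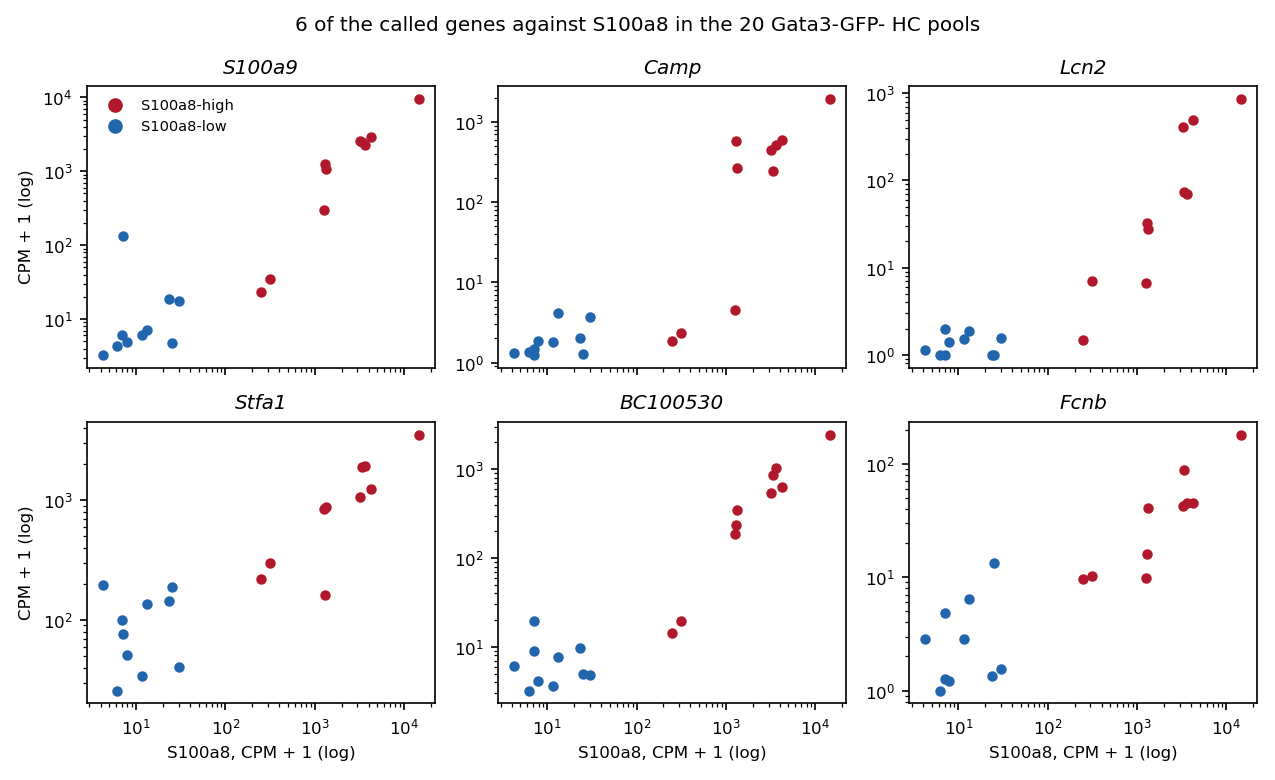
*S100a9*, *Camp*, *Lcn2*, *Stfa1*, *BC100530* and *Fcnb* against *S100a8* in the 20 *Gata3*-GFP- HC pools, as CPM + 1 on log axes, with S100a8-high in red and S100a8-low in blue. Among the red points each gene tends to be higher where *S100a8* is higher, and the blue points lie at 29.2 CPM of *S100a8* or less.

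Of 16 listed secondary and tertiary granule genes, 12 were tested, 2 were called by edgeR (*Camp* and *Lcn2*) and 8 had an unadjusted p under 0.05, all higher in S100a8-high. The list's median log2 fold change was 2.37. *Ngp*, which encodes neutrophilic granule protein, had 126.5, 835, 46.7, 90.3, 175, 19.4 and 85.1 CPM in pools 1 to 7, 0 in pools 8, 9 and 10, and at most 2.89 CPM in S100a8-low. It did not pass in edgeR, with a log2 fold change of 8.15 ± 1.46 (SE, adjusted p = 0.0188), and was called by DESeq2's Wald test, with *S100a8* as a slope, with 5 against 5 pools and without pool 8, 9 or 10. *Itgb2l*, an integrin beta chain gene of granulocytes, had 4.29 to 20.9 CPM in pools 1 to 7 and at most 0.723 CPM in S100a8-low (edgeR, adjusted p = 0.0381) and was called by DESeq2's Wald test. *Ltf*, for the granule protein lactoferrin, reached 141.2 CPM in 1 pool but had too few counts to be tested.

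The members of that list with the highest mean CPM were not all called. *Lyz2*, the lysozyme gene shared by macrophages and granulocytes, ran from 781 to 2541 CPM in S100a8-high and from 676 to 3924 CPM in S100a8-low (log2 fold change -0.16 ± 0.30, SE, adjusted p = 0.999). *Hp*, which encodes haptoglobin, had medians of 231 and 93.7 CPM (1.03 ± 0.34, SE, adjusted p = 0.773). *Mmp8* and *Mmp9*, the collagenase and gelatinase of mature neutrophils, had medians of 1.198 and 1.97 CPM in S100a8-high and 0.458 and 0.427 CPM in S100a8-low, but reached higher levels in single S100a8-low pools (20.8 and 38.03 CPM against 8.41 and 19.7 CPM). Their log2 fold changes were -0.68 ± 1.045 and -1.22 ± 1.12 (SE, adjusted p = 0.999 for both in edgeR).

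Some primary granule genes, such as *Mpo* and *Prtn3*, were present in every pool of both sets, and others were scarce in most S100a8-low pools. Of 10 listed, 9 were tested and 0 were called by edgeR or DESeq2's Wald test, while 5 had an unadjusted p under 0.05, all higher in S100a8-high. All 9 had a log2 fold change above 0, with a median of 1.18, against 7062 of the 13863 genes tested. *Mpo*, the myeloperoxidase gene, ran from 58.1 to 2357 CPM in S100a8-high and from 16.3 to 937 CPM in S100a8-low (1.17 ± 0.66, SE, adjusted p = 0.999). *Prtn3*, for proteinase 3, ran from 211 to 961 CPM and from 35.8 to 425 CPM (1.23 ± 0.37, SE, adjusted p = 0.629). *Elane*, for neutrophil elastase, ran from 0.192 to 160 CPM and from 0 to 52.4 CPM, with medians of 62.3 and 1.96 CPM (2.87 ± 0.89, SE, adjusted p = 0.681). *Ms4a3* had medians of 108.5 and 2.08 CPM (3.41 ± 0.91, SE, adjusted p = 0.372). *Prss57* had medians of 20.3 and 0.17 CPM (2.25 ± 1.07, SE, adjusted p = 0.999).

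Primary and later granule transcripts did not keep 1 order among the S100a8-high pools. Pool 8 had the highest *Mpo*, *Prtn3* and *Elane* of the 20 pools (2357, 961 and 160 CPM), with *Camp* at 3.56 CPM and *Ngp* at 0. Pool 2 had the highest *Ngp* (835 CPM) and the second highest *Lcn2* and *Camp*, with *Elane* at 0.192 CPM and *Mpo* at 164 CPM. These 2 pools were singled out after their values were seen.

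Of 20 listed surface and enzyme genes of mature neutrophils, 14 were tested and 1, *Wfdc21*, was called by edgeR, with a median log2 fold change of 0.27 for the list. *Itgam*, which encodes CD11b, ran from 33.9 to 130 CPM in S100a8-high and from 49.1 to 113.1 CPM in S100a8-low (0.04 ± 0.20, SE, adjusted p = 0.999). Its exons overlap in GENCODE M21 with *Gm49368* on the same strand over 68.7% of their length. How reads in such overlaps were counted is not given. *Csf3r*, the G-CSF receptor gene, ran from 29.4 to 82.7 CPM and from 29.2 to 60.9 CPM (0.23 ± 0.19, SE, adjusted p = 0.999). *Ly6g*, the usual surface marker of mature mouse neutrophils, had 0 counts in all 20 pools.

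Among 15 transcription factors of granulocytes and monocytes, edgeR called 0 and DESeq2's Wald test called 1, *Gfi1*. *Gfi1*, a repressor needed for neutrophil formation, had 0 counts in all S100a8-low pools and up to 10.72 CPM in S100a8-high. It did not pass in edgeR (adjusted p = 0.059) and was called by DESeq2's Wald test and with *S100a8* as a slope. *Cebpe*, a C/EBP factor of late granulocyte maturation, ran from 0 to 49.2 CPM (median 24.1) in S100a8-high and from 0 to 14.4 CPM (median 0) in S100a8-low (3.18 ± 0.95, SE, adjusted p = 0.58). *Spi1*, which encodes PU.1, had medians of 420 and 427 CPM (-0.13 ± 0.10, SE) and *Irf8*, a monocyte and dendritic cell factor, 85.3 to 218 and 112.8 to 265 CPM (-0.12 ± 0.16, SE, adjusted p = 0.999 for both).

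Among the other *S100* genes only *S100a9* was called, of 13 listed and 8 tested, and the list's median log2 fold change was -0.12. *S100a10* and *S100a13*, next to *S100a9* in mean CPM, differed by -0.05 ± 0.23 and 0.15 ± 0.14 (log2, SE, adjusted p = 0.999 for both). No gene was called in the list of calprotectin receptors and inflammasome genes (11 tested, median log2 fold change -0.06) or in the NADPH oxidase list (6 tested, -0.01). *Tlr4*, a receptor for calprotectin, had medians of 33.7 and 33.2 CPM. *Rac2* and *Cyba*, components of the oxidase, differed by 0.19 ± 0.10 and 0.11 ± 0.10 (log2, SE, adjusted p = 0.999 for both). Of 14 chemokine and cytokine genes, 12 were tested and 0 were called, and *Ccl3* ran from 204 to 1184 CPM in S100a8-high and from 328 to 749 CPM in S100a8-low.

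**Figure D4:**
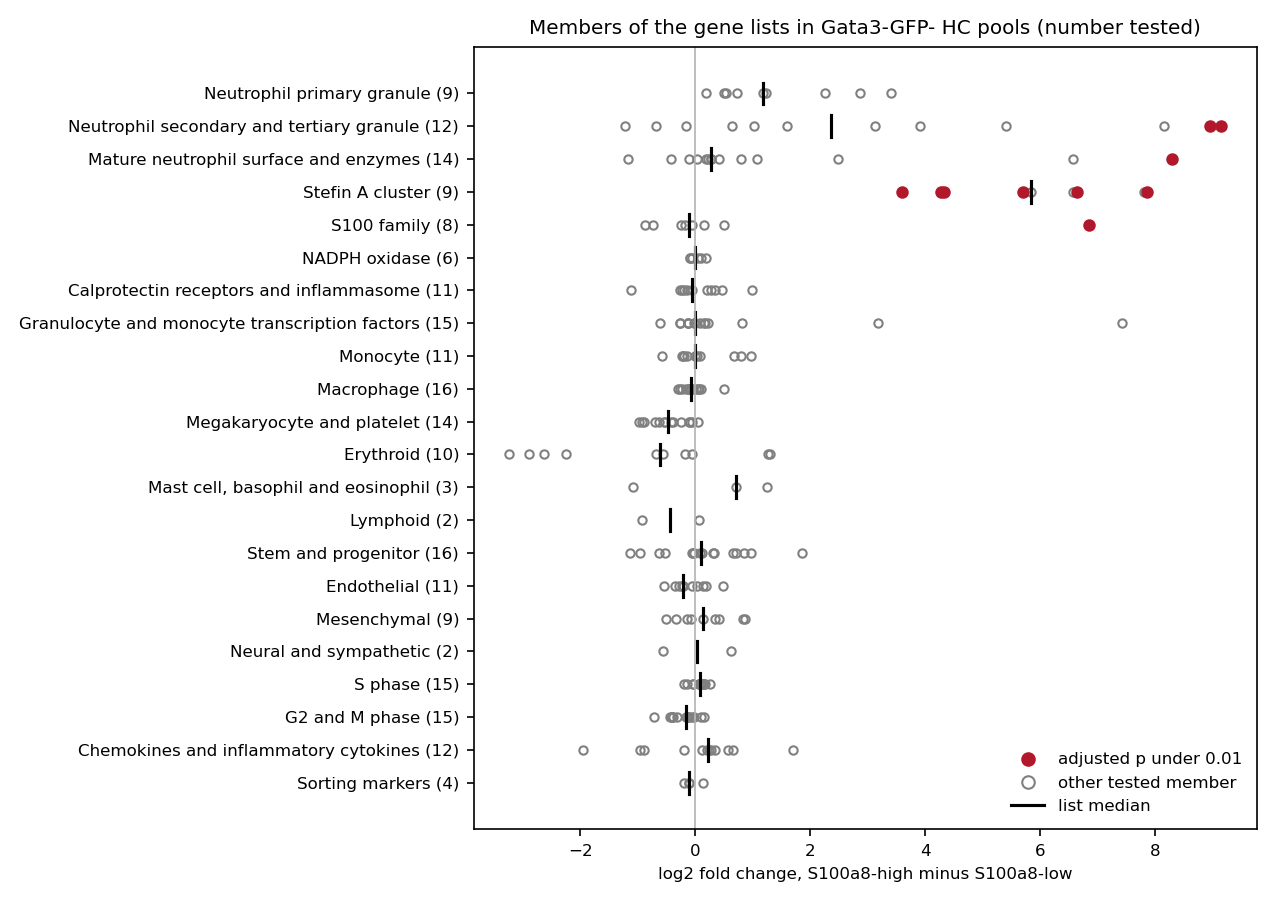
Log2 fold changes, S100a8-high minus S100a8-low, of the tested members of 22 gene lists in *Gata3*-GFP- HC pools, with members past the threshold in red, the others as open circles and the list median as a bar. Of the 11 called genes, 10 lie in 4 lists and *Fcnb* in none of the 22. The 4 lists are those of later granules, mature neutrophil genes, the stefin A cluster and the *S100* family.

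No marker of other cells the sort can hold was called by edgeR or by DESeq2's Wald test in the lists for those cells. Macrophage genes had similar sums. The 18 listed summed to 6565 to 12800 CPM in S100a8-high and 8075 to 12830 CPM in S100a8-low, and *C1qb*, a complement gene of macrophages, had medians of 1706 and 1703 CPM. Monocyte genes (11 tested) had a median log2 fold change of -0.01. *Plac8*, a gene of immature myeloid cells in that list, had medians of 559 and 316 CPM (0.80 ± 0.22, SE, adjusted p = 0.437).

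The megakaryocyte and platelet list had a median log2 fold change of -0.48 over 14 tested genes, 1 of them above 0. *Pf4*, for platelet factor 4, ran from 118.9 to 2174 CPM in S100a8-high and from 220 to 3153 CPM in S100a8-low (0.05 ± 0.51, SE, adjusted p = 0.999). The erythroid list had a median of -0.62 over 10 tested genes. *Hba-a1* and *Hbb-bh1*, an adult and an embryonic hemoglobin gene, reached 648 and 639 CPM in pool 19, which is S100a8-low, and at most 95.6 CPM elsewhere (adjusted p = 0.999 for both). *Prg2*, for the major basic protein of eosinophils and mast cells, was at 1254 CPM in pool 17 and 484 CPM in pool 5. Lymphoid genes summed to 3.83 to 41.3 CPM and 3.69 to 43.9 CPM in the 2 sets, and *Ebf1*, a B cell factor, had medians of 4.08 and 5.40 CPM.

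Stem and progenitor, endothelial and cell cycle genes also gave 0 calls in both. The stem and progenitor list had a median log2 fold change of 0.10 (16 tested), and *Cd34*, a marker of progenitors and endothelium, had medians of 106.4 and 107.2 CPM. Endothelial genes had a median of -0.21 (11 tested), and *Cdh5*, which encodes VE-cadherin and is used to sort ECs, lay below 10 CPM in every pool. *Gata3* was at 1.75 to 9.69 CPM in S100a8-high and 2.99 to 12.1 CPM in S100a8-low (-0.19 ± 0.34, SE, adjusted p = 0.999). S phase genes had a median of 0.09 (15 tested) and G2 and M phase genes of -0.17 (15 tested). Of these, 11 S phase and 2 G2 and M phase genes had a log2 fold change above 0, against 7062 of the 13863 genes tested. In the G2 and M list 2 genes had an unadjusted p under 0.05 in edgeR, both lower in S100a8-high, and in the S phase list 0 did, against 4.57% of all genes. *Pcna* and *Birc5*, of the 2 phases, differed by 0.11 ± 0.09 and -0.05 ± 0.14 (log2, SE). Mesenchymal genes had a median of 0.14 (9 tested). The neural list (2 tested, 0.03), the lymphoid list (2 tested, -0.43) and the mast cell, basophil and eosinophil list (3 tested, 0.70) had few members with enough counts.

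The same split was made in the 20 *Gata3*-GFP+ HC pools. There *S100a8* ran from 8.34 to 98.6 CPM in the upper 10 pools (median 13.4, second highest 29.7) and from 0 to 8.13 CPM in the lower 10. Of 14498 genes tested 0 were called in either direction (0% of the genes tested, edgeR), with 784 (5.41%) at an unadjusted p under 0.05 and a smallest adjusted p of 0.532. DESeq2's Wald test called 4 and scanpy's test 0. Of the 11 genes, 3 had enough counts to be tested there. *S100a9* had a log2 fold change of 1.34 ± 0.71, *BC100530* of 0.74 ± 0.83 and *Stfa1* of -1.44 ± 0.63 (SE, adjusted p = 0.929, 0.978 and 0.88). *Camp*, at 8.95 ± 1.28 in *Gata3*-GFP- HCs, had at most 2.94 CPM in any *Gata3*-GFP+ HC pool.

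The difference between the 2 HC populations in the fold change was tested directly over the 40 pools. Of 16199 genes 0 were called (0%, edgeR), with 902 (5.57%) at an unadjusted p under 0.05, while DESeq2's Wald test called 10. *Stfa1* came closest, with a difference of 5.02 ± 0.85 on the log2 scale (SE, *Gata3*-GFP- minus *Gata3*-GFP+, adjusted p = 0.0106). For *S100a9*, *BC100530* and *Camp* the differences were 5.29 ± 1.27, 5.68 ± 1.21 and 6.86 ± 2.30 (SE, adjusted p = 0.299, 0.172 and 0.56). The span of *S100a8* itself was smaller in the *Gata3*-GFP+ pools, and the 2 populations share no pools.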

How the data were processed

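The authors sorted pools of 20 cells, prepared them by Smart-seq2 with added ERCC RNAs and sequenced single-end reads of 125 bases. They deposited raw HTSeq counts per gene, neither normalized nor filtered. The paper names STAR and Ensembl release 81, whereas the submitters' processing notes name GSNAP, HTSeq 0.5.3p3 and mm10. Strand and overlap settings are not given in the sources used here. Amplified reads carry no molecular identifiers, so intervals and floors cover counting error only.

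The table's 160 columns were mapped to populations by their headers. CPM is a count divided by the sum of the 46078 gene rows of the pool, times 1000000. Ambiguous and unassigned reads and ERCC RNAs were left out (9.53% to 13.7% of reads on no gene in *Gata3*-GFP- HC). All 40 HC pools passed the paper's quality limits, and no column was identical to another.

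Members and lists were chosen with earlier results of these data known. A gene other than *S100a8* was tested when 5 or more of the 20 pools had 10 or more counts, with edgeR 4.0.16 in R 4.3.3 (TMM, robust quasi-likelihood, Benjamini-Hochberg). *Lcn2*, *Wfdc21*, *Gfi1*, *Itgb2l*, *Stfa2* and *Gm5689* had 0 S100a8-low pools with 10 or more counts. They passed this filter through S100a8-high pools alone, so they could hardly come out lower. *Camp*, *Gm5483* and *BC117090* had 2 S100a8-low pools with 10 or more counts, and *Gm5416*, *Csta1*, *Stfa2l1* and *Ngp* had 1. *Cebpe* and *Prss57* had 3, and *Fcnb*, *Elane* and *Ms4a3* had 4. These passed only with the help of S100a8-high pools, so for them too the filter leaned toward higher. Calls needed an adjusted p under 0.01 with a log2 change over 0.1 in size. Standard errors come from the F statistics. The *Gata3*-GFP+ HC pools were treated alike, and 1 fit of 40 pools gave the interaction. Named genes were *S100a8*, *S100a9*, 4 sorting markers, the 15 called genes with the largest rise and 10 with the largest fall among those with at least 10 counts in 8 pools of the higher set, the called and the 3 most abundant members of each of 22 lists, and the 10 genes ranked most like *S100a8*. Others were named after their values were seen, among them *Ngp*, *Gfi1*, *Cebpe*, *Elane*, *Ms4a3*, *Prss57*, *Itgb2l*, *Ltf*, *Mmp8*, *Mmp9*, *Ly6g*, *Tlr4*, *Stfa2*, *Stfa3*, *Clec4n* and *Cxcl5*. Not every gene that the rule names is printed.

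Alternatives were DESeq2 1.42.0 (size factors, Wald test), ERCC size factors, scanpy 1.11.5's test on scran 1.30.0 values (the study's test), other filters and thresholds, a depth covariate, an *S100a8* slope, 5 against 5 pools, ranking by *S100a9*, and leaving out pools. The fits were tested on simulated data. With counts simulated for the *Gata3*-GFP- HC pools, edgeR's call recovered 27% of 100 2-fold and 70% of 100 4-fold changes, with 0 false calls. A list with 0 calls can therefore hold changes of these sizes. The simulated pools were drawn independently, whereas the real pools share replicates, so the 0 false calls do not cover that dependence. Symbols came from GENCODE M21 (45143 genes matched). Tables and plots were made in Python 3.11.15 with scipy 1.17.1, pandas 2.3.3, matplotlib 3.10.9 and numpy 2.4.6.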

Additional observations from a re-analysis of the deposited data

Results flagged for a closer look

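In 58 checks of a set for a pool far from the rest, over the main genes and the library measures, 4 were past Dixon's limit, and chance flags about 1 in 20. In S100a8-low, *S100a9* reached 131.3 CPM in pool 17, where the next pool had 17.7 CPM. *Stfa2l1* reached 16.5 CPM in pool 12, where the next had 1.74 CPM. Pool 20 stood apart in its log2 gene counts (23.9, next 22.2) and in its number of genes with at least 10 counts (14786).

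*S100a8* was also found in E10.5 pools outside the HC comparison, with medians in ECs of 8.15 CPM (*Gata3*-GFP+) and 9.75 CPM (*Gata3*-GFP-). In each of these populations 15 of 20 pools had more than 3 counts, against 0 counts in all 40 MC pools. Over the 60 E10.5 pools outside *Gata3*-GFP- HCs, 19 had 7 or fewer *S100a8* counts, 40 had at least 11 but fewer than 110, and 1 *Gata3*-GFP+ HC pool had 692. Whether these reads come from cells in those pools or from elsewhere was not tested.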

How the results depend on the processing

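In S100a8-high, 11 genes were called higher. The count was 23 with DESeq2's Wald test (and 2 lower), 23 with *S100a8* as a slope, 18 with 5 against 5 pools, 17 at an adjusted p under 0.05, 6 without a filter and 0 with scanpy's test. It was 10 with DESeq2 or ERCC size factors, with depth as a covariate and when ranked by *S100a9*. It was 8, without *Lcn2*, *S100a9* and *Wfdc21*, with at least 10 counts in 10 pools. Added after seeing the data, it was 20 without pools 9 and 10 and 21 without the 3 deepest pools (9, 10 and 20), all 11 genes included in both. Leaving out 1 pool gave 6 to 18, with 6 without pool 11 or 16, 7 without pool 3, 4 or 20, and 18 without pool 9. *Camp*, *Wfdc21*, *Gm5483*, *BC100530*, *Gm5416* and *BC117090* stayed called in all 20 of these fits, *Lcn2* in 17 (lost without pool 11, 16 or 20), *Csta1* in 12 (lost without pool 1, 3, 4, 11, 12, 14, 16 or 20) and *Stfa1* in 12 (lost without pool 3, 4, 11, 13, 15, 16, 17 or 18). In *Gata3*-GFP+ HCs DESeq2's Wald test gave 4 higher genes, and 0 were called otherwise, leaving out 1 pool included. For the difference between the populations it gave 7 higher and 3 lower, the stricter filter 1 (*Stfa1*) and an adjusted p under 0.05 gave 2. The cause was not tested. No library measure changed its call. No paired analysis was possible because both sets come from 1 labelled population and the columns carry no replicate number. Depth limits the genes near 0 in S100a8-low, such as *Wfdc21*, *Lcn2* and *Camp*.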
